A study of Homo sapiens with 12 samples.

Results

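The genes that make, cut and bind hyaluronan were followed in HT144, an established human melanoma cell line, after silencing of CITED1, a transcriptional co-regulator that binds no DNA by itself. The set held 9 genes, CEMIP, HAS1, HAS2, HAS3, HYAL1, HYAL2, HYAL3, CD44 and HMMR, and its members were all probes annotated to these symbols. Of the 9 genes, 7 had a probe named in the annotation used here, with 16 probes in all among 47315 probes and 20045 named genes. HAS1 and HYAL1 had no named probe, and no value is given for them. The genes were chosen with results of these same arrays known. Their values were thus selected on the comparisons given here and are reported as a description. A call at a member probe states only that it passed the all-probe threshold and is no independent test. The gene lists set beside the members were also chosen with such results known, so their p-values and counts are no independent support either.

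Cells were transfected with a non-targeting control siRNA (siNEG) or with 1 of 2 siRNAs against CITED1 (#1 siCITED1 and #3 siCITED1), using Lipofectamine2000 in every group, and RNA was taken at 48 h. Each of the 3 groups held 4 beadchip arrays, hybridised with RNA from separate wells of 1 passage plated on the same day. The model is therefore 1 cell line with a transient knockdown, transfected with a reduced-serum medium and then kept in normal growth medium, without a rescue construct, and errors and p-values cover well-to-well spread within 1 experiment only. Values are log2 intensities centred on each probe and each array, so a value of 0 is the mean of that probe over the 12 arrays and levels of different probes cannot be compared.

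Hyaluronan is a long sugar chain of the extracellular matrix that is spun out through the plasma membrane by the synthases HAS1, HAS2 and HAS3 from UDP-glucuronic acid and UDP-N-acetylglucosamine. HYAL1 and HYAL2 cut it in lysosomes and at the cell surface, the role of HYAL3 is less clear, and CEMIP (also named KIAA1199 or HYBID) is needed for the cutting of long chains outside lysosomes in fibroblasts. CD44 is the main cell-surface receptor, and HMMR (RHAMM) binds hyaluronan but also works at the mitotic spindle. In melanoma the hyaluronan coat is known mainly for its part in adhesion, migration and the stroma around the tumour.

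In all groups the arrays were alike in scale, with medians between -0.0038 and -0.00038 and standard deviations between 0.11 and 0.134. The CITED1 probe was lower by 0.64 ± 0.06 (SE, log2) with #1 siCITED1 and by 0.75 ± 0.06 with #3 siCITED1, with limma adjusted p = 1.8e-07 and 6.5e-08, with no overlap between silenced and control wells. The #1 minus #3 difference of this probe was 0.11 and was not called (limma adjusted p = 0.47). For the protein, the paper judged #3 siCITED1 the less successful at silencing CITED1, from a Western blot. The siNEG replicate 1 array stood apart on the third principal component, which held 9.43% of the variance. Among 6 melanocyte marker genes with a probe, 4 rose with #1 siCITED1, 2 with #3 siCITED1, and 4 were higher in #1 minus #3. The 4 not called with #3 siCITED1 included PMEL, which differed by -0.20. The call of TYR with #3 siCITED1 (0.27) was lost under 10 of 19 alternatives, with each siNEG array, each #3 siCITED1 array or #1 siCITED1 replicate 1 left out (0.21 to 0.30) and with the replicate block. The MLANA call in #1 minus #3 (0.28) was lost under 4 of 19. Among 5 fibroblast marker genes 1, COL1A2, rose with #3 siCITED1 and 0 with #1 siCITED1, and in #1 minus #3 COL1A2 was lower at both of its probes (-0.64 and -0.56, limma adjusted p = 3.1e-06 and 0.0011). Against siNEG, 0 of 3 keratinocyte, 0 of 3 endothelial and 0 of 3 leukocyte marker genes were called by limma, with 1, 0 and 1 probes at an unadjusted p under 0.05 with #1 siCITED1 and 0, 1 and 0 with #3 siCITED1. In #1 minus #3, 1 leukocyte marker gene was called, CD14 at ILMN_2396444 (-0.30, limma adjusted p = 0.0054), and its other probe ILMN_1740015 was not (-0.02, 0.93). Because the values are centred, the presence or absence of a marker in HT144 could not be read from them.

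Among the hyaluronan genes the calls fell on CEMIP, HAS3 and HMMR, and went in both directions. With #1 siCITED1, 4 of the 16 probes were called (limma, adjusted p under 0.05 over all probes), beside 6.04% of all probes. Of these, CEMIP was higher, while 1 HAS3 probe and both HMMR probes were lower. With #3 siCITED1, 2 probes were called, HAS3 higher and CEMIP lower, beside 2.54% of all probes. With the 8 siCITED1 arrays taken as 1 group, as in the design of the study, 1 HMMR probe was called, lower than in siNEG, beside 1.11% of all probes. Between the 2 siRNAs, CEMIP and HAS3 were called, beside 7.46% of all probes. Because the genes were chosen on these values, nothing is read from these counts. The median over the 16 probes was 0.02 for both siRNAs together, -0.02 for #1 siCITED1, 0.02 for #3 siCITED1 and -0.05 for #1 minus #3, against 0.00145, 0.00125, 0.000924 and -0.000896 over all probes in the same order.

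**Figure D1:**
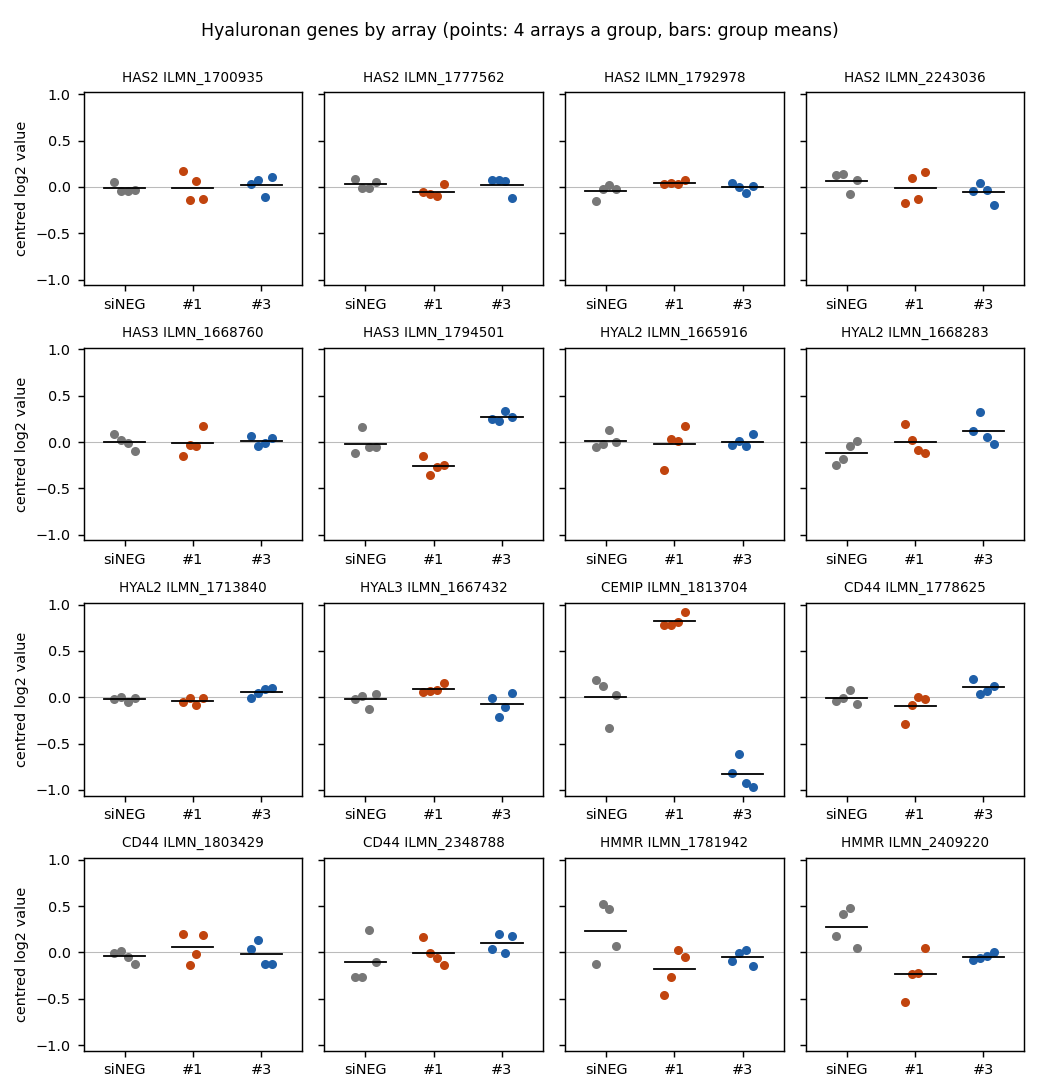
Centred log2 value (y axis) of each of the 16 hyaluronan gene probes on each array, by group (x axis); points are the 4 arrays of a group in replicate order and bars are group means. CEMIP separates the 3 groups, one HAS3 probe separates them over a smaller range, and both HMMR probes have their highest values in siNEG.

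The start regions of the 3 genes that carried the calls are shown because CEMIP and HAS3 differed from siNEG in opposite directions with the 2 siRNAs, while both HMMR probes were called lower with #1 siCITED1. They are the 250 bases before the annotated gene start, 5′ to 3′ on the strand of the gene, from RefSeq (GRCh38.p14), where 8 of the 9 genes had a window. The CEMIP window is chr15:80779120-80779369, the HAS3 window chr16:69107290-69107539 and the HMMR window chr5:163460382-163460631, all on the plus strand. Capitals mark every match, on either strand, of 8 motifs: the E-boxes CACGTG and CATGTG, AP-1 (TGANTCA), TEAD (GGAATG), the CCAAT box (CCAAT), the cell cycle homology region CHR (TTTGAA), the TATA box (TATAAA) and SP1 (GGGCGG).
CEMIP: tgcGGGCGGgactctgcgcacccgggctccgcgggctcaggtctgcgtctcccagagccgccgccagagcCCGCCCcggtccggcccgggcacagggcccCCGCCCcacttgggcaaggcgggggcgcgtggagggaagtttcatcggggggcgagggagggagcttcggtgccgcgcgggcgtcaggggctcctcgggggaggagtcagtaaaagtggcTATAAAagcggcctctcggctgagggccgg
HAS3: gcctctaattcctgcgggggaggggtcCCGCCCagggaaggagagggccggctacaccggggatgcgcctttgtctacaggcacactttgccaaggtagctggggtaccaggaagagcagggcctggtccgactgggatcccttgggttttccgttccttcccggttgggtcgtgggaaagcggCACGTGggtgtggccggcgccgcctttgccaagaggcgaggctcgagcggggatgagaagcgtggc
HMMR: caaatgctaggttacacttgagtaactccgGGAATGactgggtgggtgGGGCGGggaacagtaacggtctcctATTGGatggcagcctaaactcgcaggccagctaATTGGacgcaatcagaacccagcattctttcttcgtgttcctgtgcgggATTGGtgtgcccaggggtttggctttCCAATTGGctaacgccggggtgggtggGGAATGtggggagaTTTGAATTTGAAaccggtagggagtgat

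The CEMIP window held 3 SP1 matches and 1 TATA box match, whose first base lay 30 bases before the start, in a sequence of 74.4% G and C. A TATA box match occurred in 10.7% of 35116 RefSeq promoter windows of the same length and an SP1 match in 42.6%. The HAS3 window held 1 SP1 match and 1 E-box CACGTG, the latter starting 66 bases before the gene start, and that E-box occurred in 6.34% of windows. The HMMR window was poorer in G and C (53.6%) and held 10 matches. These were 5 CCAAT boxes, of which 2 overlap each other as CCAATTGG, 2 adjoining CHR matches that start 28 and 22 bases before the gene start, 2 TEAD matches and 1 SP1 match. At least 1 CCAAT box occurred in 32% of windows, a CHR match in 13.3% and a TEAD match in 11.9%. AP-1 letters and the E-box CATGTG, present in 6.57% and 9.42% of windows, were in none of the 3 windows. A match describes the letters only.

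HAS3, the synthase that makes comparatively short hyaluronan chains, was the one synthase with a called probe. At ILMN_1794501 the siNEG arrays read -0.12, 0.16, -0.05 and -0.05 in replicate order, the #1 siCITED1 arrays -0.15, -0.35, -0.27 and -0.25, and the #3 siCITED1 arrays 0.25, 0.23, 0.34 and 0.27. All #1 siCITED1 arrays lay below all siNEG arrays and all #3 siCITED1 arrays above them. The difference from siNEG was -0.24 ± 0.07 (SE, n = 4 against 4, 95% interval -0.38 to -0.10) with #1 siCITED1 and 0.29 ± 0.07 (0.15 to 0.43) with #3 siCITED1. The #1 minus #3 difference was -0.53 ± 0.07 (-0.67 to -0.39), a 1.44-fold lower signal with #1 siCITED1, and passed the all-probe threshold under all 19 alternatives. The calls against siNEG were less stable. That with #1 siCITED1 was lost under 8 of 19 alternatives, among them the omission of siNEG replicate 2 (-0.18), siNEG replicate 4 (-0.25), or #1 siCITED1 replicate 2 (-0.21), 3 (-0.23) or 4 (-0.24). That with #3 siCITED1 was lost under 5 of 19, among them the omission of siNEG replicate 1 (0.25), 3 (0.28) or 4 (0.28) or of #3 siCITED1 replicate 3 (0.27).

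The second HAS3 probe did not show this pattern. ILMN_1668760 differed from siNEG by -0.01 (95% interval -0.16 to 0.13) with #1 siCITED1 and by 0.01 (-0.13 to 0.15) with #3 siCITED1, and its arrays overlapped between all groups. The mean of both HAS3 probes was accordingly smaller, at -0.13 and 0.15 against siNEG, and was not called in either comparison. The probe sequences were not used here, so the transcripts that each probe reads cannot be told apart.

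HAS2, the synthase of very long chains, had 4 probes and none was called in any comparison. Their differences from siNEG ranged from -0.08 to 0.09 with #1 siCITED1 and from -0.12 to 0.04 with #3 siCITED1, and the 95% intervals of all 4 reached no further than -0.28 and 0.21.

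CEMIP had 1 probe, ILMN_1813704, and it carried the largest differences of the set. The siNEG arrays read 0.19, 0.12, -0.33 and 0.02, the #1 siCITED1 arrays 0.78, 0.78, 0.82 and 0.92, and the #3 siCITED1 arrays -0.82, -0.61, -0.92 and -0.97. The 3 groups did not overlap, with #1 siCITED1 above and #3 siCITED1 below the control. CEMIP was 0.83 ± 0.09 higher than siNEG with #1 siCITED1 (SE, n = 4 against 4, 95% interval 0.64 to 1.01), a 1.77-fold difference. With #3 siCITED1 it differed by -0.83 ± 0.09 (-1.02 to -0.64), a 1.78-fold lower signal. Both differences stayed past the threshold under all 19 alternatives, and with single arrays left out they ranged from 0.72 to 0.89 and from -0.94 to -0.77. Between the siRNAs CEMIP differed by 1.66 ± 0.09 (1.47 to 1.84), a 3.15-fold higher signal with #1 siCITED1. By absolute size this was rank 1 of all 47315 probes in that comparison. The pooled comparison gave -0.00 ± 0.35 (-0.74 to 0.73), since it averages groups on either side of the control. The mean centred value of the 6 melanocyte marker probes lay between -0.33 and -0.20 on the siNEG arrays, 0.23 and 0.38 with #1 siCITED1, and -0.15 and -0.02 with #3 siCITED1. The 9 fibroblast marker probes had means of -0.04 to 0.03, -0.06 to -0.02 and 0.04 to 0.08 in the same order. With #3 siCITED1, COL1A2 was the 1 fibroblast gene called, and the median difference from siNEG over the 9 probes was -0.02. The melanocyte marker PMEL differed by -0.20 with #3 siCITED1 and was not called. The part of the marker genes in the result was not tested. In RNA from whole wells, fewer cells of one kind and less RNA per cell cannot be told apart.

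The hyaluronidases HYAL2 and HYAL3 lie with HYAL1 in a cluster on chromosome 3, and none of their 4 probes was called. At HYAL2, the membrane-anchored hyaluronidase, ILMN_1668283 had the largest difference, 0.24 (0.07 to 0.40) with #3 siCITED1, with arrays that overlapped siNEG. The other HYAL2 probes differed from siNEG by -0.03 to 0.07 with either siRNA. The HYAL3 probe ILMN_1667432 read 0.06, 0.07, 0.08 and 0.16 with #1 siCITED1 and -0.02, 0.01, -0.12 and 0.04 in siNEG, so that the groups did not overlap, but its difference of 0.11 (-0.02 to 0.25) was not called.

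**Figure D2:**
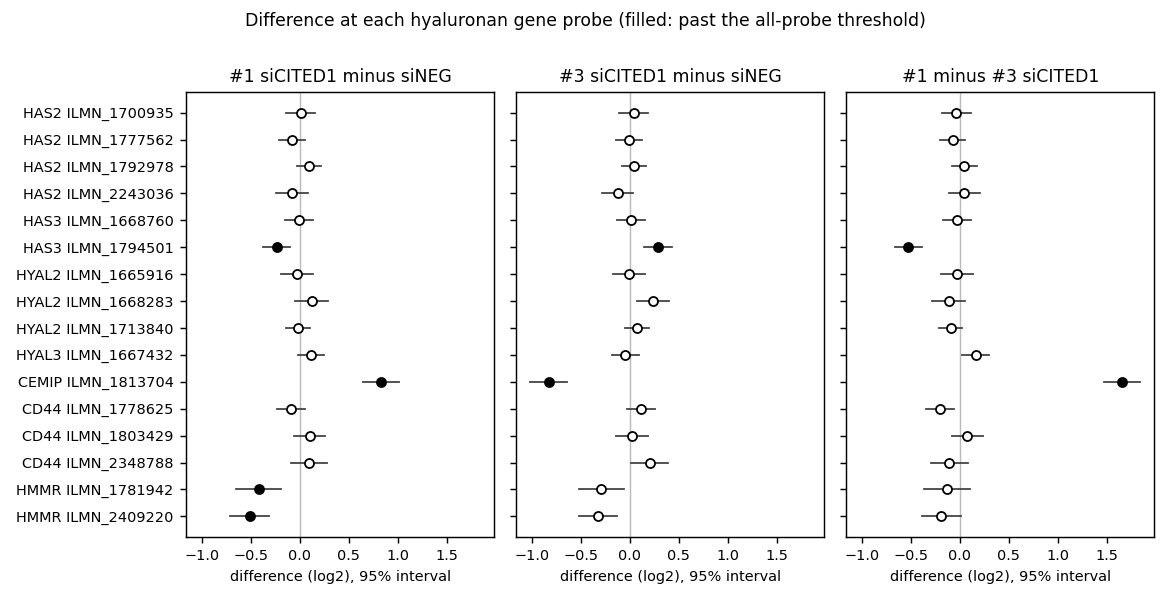
Difference in centred log2 value (x axis) with its 95% interval for each hyaluronan gene probe (y axis), for #1 siCITED1 minus siNEG, #3 siCITED1 minus siNEG and #1 minus #3; filled points passed the all-probe threshold. CEMIP lies at 0.83, -0.83 and 1.66, and HAS3 ILMN_1794501 at -0.24, 0.29 and -0.53.

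CD44, the receptor that couples hyaluronan to the actin cortex, had 3 probes and no call. With #1 siCITED1 they differed from siNEG by -0.09 to 0.10, and with #3 siCITED1 by 0.02 to 0.20. The largest of these was ILMN_2348788 with #3 siCITED1 (0.20, 95% interval 0.01 to 0.39), where the siNEG arrays themselves spread widely, at -0.27, -0.26, 0.24 and -0.11. Without siNEG replicate 3 this difference was 0.32 and was called. ILMN_1778625 was lower with #1 than with #3 siCITED1 by 0.20 (-0.35 to -0.06 for #1 minus #3) without overlap of the arrays, and was not called.

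HMMR was lower with #1 siCITED1 at both of its probes. At ILMN_2409220 the siNEG arrays read 0.18, 0.41, 0.48 and 0.05, the #1 siCITED1 arrays -0.53, -0.23, -0.22 and 0.05, and the #3 siCITED1 arrays -0.08, -0.06, -0.04 and 0.01. The siNEG group spread over a wide range, and 1 #1 siCITED1 array reached its lowest value, whereas all #3 siCITED1 arrays lay below it. The difference was -0.51 ± 0.10 (95% interval -0.71 to -0.32) with #1 siCITED1, a 1.43-fold lower signal that was called under all 19 alternatives. It was -0.33 ± 0.10 (-0.52 to -0.13) with #3 siCITED1 and not called, though it was called when siNEG replicate 1 (-0.36), siNEG replicate 4 (-0.40), or #1 siCITED1 replicate 1 or 4 (both -0.33) was left out. The #1 minus #3 difference was -0.19 (-0.39 to 0.01) and was not called, so a difference in HMMR between the siRNAs was not shown.

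The second HMMR probe gave the same order of groups with more scatter. At ILMN_1781942 the siNEG arrays read -0.12, 0.53, 0.47 and 0.07, the #1 siCITED1 arrays -0.46, -0.26, 0.03 and -0.05, and the #3 siCITED1 arrays -0.09, -0.00, 0.02 and -0.14. The siNEG group overlapped both others through its replicate 1. The difference was -0.42 ± 0.11 (-0.65 to -0.19) with #1 siCITED1, called, and -0.29 ± 0.11 (-0.52 to -0.06) with #3 siCITED1, not called. The first call was lost without siNEG replicate 2 (-0.32) or 3 (-0.34) or without #1 siCITED1 replicate 1 (-0.33) or 2 (-0.39), and without siNEG replicate 1 the second difference was -0.41 and was called. In the pooled comparison ILMN_2409220 differed by -0.42 ± 0.10 (-0.62 to -0.22) and was called, and ILMN_1781942 by -0.36 ± 0.11 (-0.59 to -0.12) and was not. The pooled call was lost under 9 of 19 alternatives, with siNEG replicate 1 (-0.45), 2 (-0.38) or 3 (-0.35), #1 siCITED1 replicate 2 (-0.41) or 3 (-0.41), or #3 siCITED1 replicate 1 (-0.43) left out among them.

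HMMR is known as a gene whose transcript is highest around mitosis, and most of its spindle partners were lower with #1 siCITED1. After each group's mean was subtracted, r with HMMR ILMN_2409220 ran from -0.49 (BRCA1 ILMN_2311089) to 0.44 (TUBG1 ILMN_2367743) over the 17 partner probes. Of 9 partner genes with a probe, 8 fell with #1 siCITED1 and 0 rose, with a median over their 17 probes of -0.44, and 2 fell with #3 siCITED1, with a median of -0.14. The microtubule-associated protein TPX2, which binds HMMR, differed by -0.59 ± 0.07 with #1 siCITED1 (limma adjusted p = 5.9e-06) and by -0.03 ± 0.07 with #3 siCITED1 (0.96). Its kinase partner AURKA fell by 0.89 ± 0.07 and 0.74 ± 0.07 at its 2 probes with #1 siCITED1 (limma adjusted p = 5.5e-09 and 2.8e-08). At AURKA the arrays of #3 siCITED1 differed from siNEG by -0.14 and -0.17, which did not pass. FAM83D, which brings HMMR and a kinase to the spindle, fell with both siRNAs, by 0.79 ± 0.08 and 0.32 ± 0.08 (limma adjusted p = 2.6e-07 and 0.026). The FAM83D call with #3 siCITED1 was lost without siNEG replicate 2 (-0.32) or 4 (-0.27) or #3 siCITED1 replicate 2 (-0.24).

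BRCA1, whose complex with BARD1 limits HMMR at centrosomes, also fell with both siRNAs at ILMN_2311089. Its difference there was -0.56 ± 0.07 with #1 siCITED1 and -0.36 ± 0.07 with #3 siCITED1 (limma adjusted p = 5.6e-06 and 0.0029). The other BRCA1 probe, ILMN_1738027, was called lower with #1 siCITED1 (-0.59) but was not called with #3 siCITED1. AURKA, TPX2, FAM83D and KIF11 ILMN_2143155 also differed between the siRNAs, by -0.75, -0.57, -0.46 and -0.44 for #1 minus #3 (limma adjusted p = 7.3e-08, 9.4e-06, 3e-04 and 0.00046). Of 8 G2 and M phase marker genes, 7 fell with #1 siCITED1 and 1 with #3 siCITED1. The latter was CDC20 (-0.28), and its call was lost without siNEG replicate 1 (-0.24) or 3 (-0.25) or #3 siCITED1 replicate 3 (-0.27) or 4 (-0.23). The mean over their 9 probes lay between 0.23 and 0.24 on the siNEG arrays, -0.38 and -0.24 with #1 siCITED1, and -0.07 and 0.18 with #3 siCITED1. The part of these genes in the HMMR values was not tested.

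**Figure D3:**
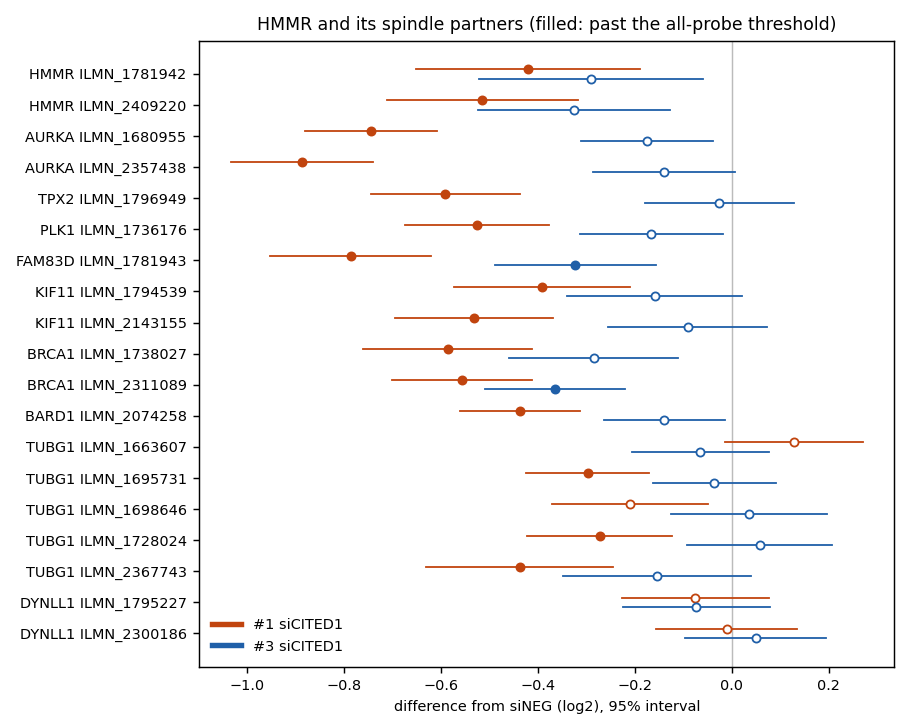
Difference from siNEG in centred log2 value (x axis) with its 95% interval for both HMMR probes and the probes of 9 spindle partners (y axis), with #1 siCITED1 (orange) and #3 siCITED1 (blue); filled points passed the all-probe threshold. With #1 siCITED1, 13 of the 17 partner probes were lower and called, and 2 were with #3 siCITED1.

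Among genes whose products bind hyaluronan, the order of the group means at HAS3 ILMN_1794501 was found again at HAPLN1. HAPLN1 is the link protein that fastens proteoglycans to the chain. After each group's mean was subtracted, r with this HAS3 probe was -0.36 for HAPLN1 ILMN_1678812 and -0.38 for ILMN_2210519. On the siNEG arrays HAPLN1 ILMN_2210519 read 0.07, 0.07, 0.03 and 0.13, with #1 siCITED1 -0.54, -0.31, -0.43 and -0.67, and with #3 siCITED1 0.29, 0.60, 0.25 and 0.50. The groups did not overlap. It fell by 0.56 ± 0.08 with #1 siCITED1 and rose by 0.33 ± 0.08 with #3 siCITED1 (limma adjusted p = 2.9e-05 and 0.021). The other HAPLN1 probe, ILMN_1678812, fell by 0.46 ± 0.07 and rose by 0.36 ± 0.07 (8.5e-05 and 0.0035). Between the siRNAs HAPLN1 differed by -0.90 and -0.82 (limma adjusted p = 2.8e-08 and 1.6e-08), which is opposite in sign to CEMIP.

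Versican (VCAN), the large proteoglycan that HAPLN1 links to hyaluronan, rose with #3 siCITED1 by 0.60 ± 0.07 (limma adjusted p = 3.8e-06) and differed by 0.12 ± 0.07 with #1 siCITED1 (0.45). The siNEG arrays of VCAN read -0.29, -0.31, -0.26 and -0.11, and the #3 siCITED1 arrays 0.42, 0.26, 0.38 and 0.39. HABP4, an intracellular protein that binds hyaluronan and RNA, rose with #3 siCITED1 by 0.48 ± 0.08 at ILMN_2107991 (limma adjusted p = 0.00059) and differed by -0.04 with #1 siCITED1 (0.91). Its second probe, ILMN_1792384, differed by 0.29 with #3 siCITED1, which did not pass (limma adjusted p = 0.078). Both genes differed between the siRNAs, by -0.48 at VCAN and -0.52 at HABP4 ILMN_2107991 (limma adjusted p = 3e-05 and 6.9e-05). Of 17 hyaluronan-binding genes, the intracellular HABP4 among them, 0 rose and 1 fell with #1 siCITED1. With #3 siCITED1, 3 rose and 0 fell. The medians over their 23 probes were -0.02 and -0.01 in the same order. In the pooled comparison limma called 0 of the 23 probes, and 3 had an unadjusted p under 0.05.

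**Figure D4:**
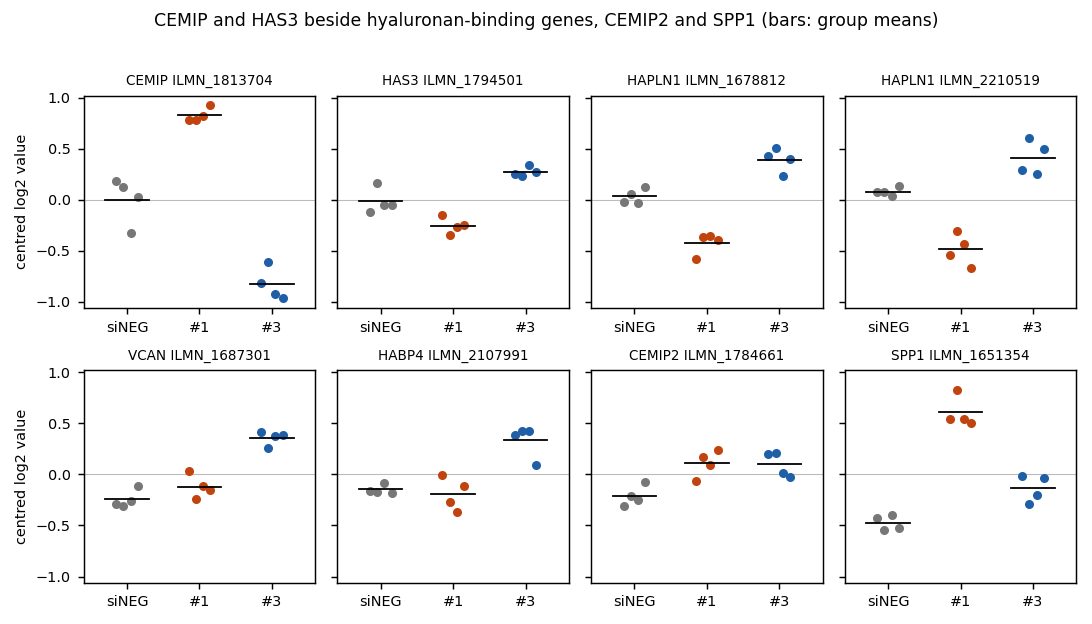
Centred log2 value (y axis) by group (x axis) for CEMIP, HAS3 and non-member genes of the hyaluronan system; points are the 4 arrays of a group in replicate order and bars are group means. HAS3 ILMN_1794501 and both HAPLN1 probes are lowest with #1 siCITED1 and highest with #3 siCITED1, CEMIP runs the other way, and CEMIP2 is higher with both siRNAs.

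CEMIP2, a membrane protein related to CEMIP with reported hyaluronan-cutting activity at the cell surface, differed from CEMIP in its pattern. The siNEG arrays of CEMIP2 read -0.31, -0.21, -0.25 and -0.08, the #1 siCITED1 arrays -0.06, 0.17, 0.09 and 0.24, and the #3 siCITED1 arrays 0.20, 0.21, 0.02 and -0.03. Every siCITED1 array was above every siNEG array. CEMIP2 rose by 0.32 ± 0.08 with #1 siCITED1 (limma adjusted p = 0.0076) and by 0.31 ± 0.08 with #3 siCITED1 (0.021), and the pooled difference was 0.32 ± 0.07 (0.023). The #1 minus #3 difference was 0.01 ± 0.08 (95% interval -0.15 to 0.16). The pooled call was lost without siNEG replicate 1 (0.28), 2 (0.32) or 3 (0.30), and the #3 siCITED1 call without siNEG replicate 1 (0.28), 2 (0.31) or 3 (0.30) or #3 siCITED1 replicate 1 or 2 (both 0.28). CEMIP2 was the one called gene among 5 further hyaluronidases and lysosomal enzymes of hyaluronan breakdown, and the others, SPAM1, HYAL4, HEXA and GUSB, passed in no comparison.

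Few of the genes for the supply of precursors had a called probe. PGM1, which interconverts glucose phosphates, rose with #1 siCITED1 by 0.47 ± 0.07 (limma adjusted p = 4.6e-05) and differed by -0.04 with #3 siCITED1 (0.94). UGP2, which makes UDP-glucose, fell with #1 siCITED1 at 2 of its 5 probes, by 0.37 at ILMN_1671969 and 0.39 at ILMN_2389155 (limma adjusted p = 0.015 and 0.0032), but the mean of its probes, -0.24, did not pass. Of the 7 genes in this list with a probe, 1 rose and 1 fell with #1 siCITED1, and limma called 0 with #3 siCITED1 or with both siRNAs together, where 2 and 1 of its 12 probes had an unadjusted p under 0.05.

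Around CD44 the ligand SPP1 (osteopontin) had the largest difference of its list with #1 siCITED1. It rose by 1.08 ± 0.08 and 0.99 ± 0.06 at its 2 probes with #1 siCITED1 (limma adjusted p = 9e-10 and 1.3e-10). With #3 siCITED1, SPP1 ILMN_1651354 rose by 0.34 ± 0.08 (limma adjusted p = 0.014) and ILMN_2374449 differed by 0.08 ± 0.06 (0.74). The first of these was lost without siNEG replicate 2 (0.31) or #3 siCITED1 replicate 1 (0.30) or 4 (0.30). MET, a receptor kinase for which CD44 can act as co-receptor, rose with both siRNAs, by 0.59 ± 0.08 and 0.38 ± 0.08 (limma adjusted p = 2.3e-05 and 0.0089). The MET call with #3 siCITED1 was lost without #3 siCITED1 replicate 3 (0.33).

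Of the linkers from CD44 to actin, EZR fell with #1 siCITED1 by 0.49 ± 0.08 at ILMN_1795937 (limma adjusted p = 0.00011), while RDX rose by 0.66 ± 0.15 (0.006). The #1 siCITED1 arrays of RDX were scattered, at -0.08, 0.19, 0.88 and 0.76. Of the 14 genes in the CD44 list, 4 rose and 1 fell with #1 siCITED1, and 2 rose and 0 fell with #3 siCITED1. The other hyaluronan receptors, LYVE1, STAB1, STAB2, LAYN, TLR2 and TLR4, were called by limma in no comparison. An unadjusted p under 0.05 was reached by 0 probes against siNEG and by 1 probe, that of TLR4, in #1 minus #3 (-0.14, limma adjusted p = 0.28). Their 7 probes differed from siNEG by -0.14 to 0.06 with #1 siCITED1 and by -0.11 to 0.09 with #3 siCITED1.

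The probes most like CEMIP over the 12 arrays were those of DPH2, RPS6KA2, RBMXL1, TSNAX and GPNMB, with Pearson r from 0.97 to 0.96 among 30089 named probes of non-member genes. The most opposed were CTDSPL, MGP and PALS1, with r of -0.97, -0.96 and -0.96. After each group's mean was subtracted, r was 0.31 for GPNMB and -0.08 for MGP, against 0.85 for RBMXL1. The correlation of GPNMB and MGP with CEMIP, positive and negative, thus lay mainly between the groups. For HAS3 ILMN_1794501 the highest were AIF1L (0.97), PRICKLE2, ADAM19, COLEC12 and MGP (0.95), and the lowest OGFRL1 (-0.97), RIOK3 and MGST2. HMMR ILMN_2409220 was most like LYPD1 (0.92), RHBG, NUCKS1, PRTG and TMEM19, and least like SPINK1 (-0.93), APOE and RABL2A. With group means subtracted, r with HMMR was still 0.72 to 0.80 for the former and -0.82 to -0.78 for the latter. The likeness to HMMR was thus also present within the groups. These values describe 12 arrays in 3 groups that share the authors' normalization and centring, and no test was made of them.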

How the data were processed

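Total RNA of HT144 cells was labelled as biotinylated cRNA and hybridised to Illumina beadchips, 12 arrays in 3 groups of 4 (siNEG, #1 siCITED1 and #3 siCITED1), with groups taken from the sample titles. The authors quantile normalized the intensities, removed control probes, took log2 values and centred them by gene and by array. The deposited table of 47315 probes therefore holds centred log2 values, and the log base rests on the methods. Background correction and detection calls were not given in the sources used here. No filter on dim probes could be applied, and the precision is limited by the number of arrays. All 12 columns were used, and 0 columns stayed unmapped.

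Probes were named from the platform annotation, updated by Entrez ID. Of all probes, 30105 had 1 symbol, 8 had several and 17202 had no entry. Group differences were fitted for all probes by limma (version 3.58.1, run under R 4.3.3) with moderated two-sided tests, and p-values were adjusted by Benjamini-Hochberg over all 47315 probes at a threshold of 0.05. The fit was tested on simulated data first. A model with 3 groups gave each siRNA against siNEG and #1 minus #3, and a model with 2 groups gave all 8 siCITED1 arrays against siNEG. The study used SAM for the latter. Fold values are 2 to the power of the absolute log2 difference. "Called" means past this threshold, and intervals are the 95% intervals of limma, not adjusted for the number of probes.

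The members and the gene lists were chosen with earlier results of these data known. Members are therefore described without p-values, and the p-values and counts of the list genes are a description, not an independent test. Named genes were all member probes, CITED1, up to 4 called genes with the largest difference per list and comparison (or 2 where none passed), and, for the 3 members with the largest difference from siNEG, the 5 probes with the highest and 3 with the lowest correlation. Motifs were searched in RefSeq promoter windows cut to the 250 bases before the start. Alternatives were another centring, a second quantile normalization, robust eBayes, array weights, gene means, the replicate number as a block, fits of 2 groups only, and each array left out.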

Additional observations from a re-analysis of the deposited data

Results flagged for a closer look

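Among 135 sets of 4 arrays, over the hyaluronan probes, CITED1 and the named genes of the pathway lists, 7 held 1 array far from the other 3, where chance gives about 1 in 20. One belongs to a hyaluronan gene: at HAS2 ILMN_1777562, #3 siCITED1 replicate 4 read -0.12 and the others 0.06 to 0.08. At UAP1 ILMN_1742461 siNEG replicate 4 read -0.10 and the others 0.14 to 0.18. For #3 siCITED1, HABP4 ILMN_2107991 read 0.10 in replicate 4 against 0.39 to 0.43, RDX ILMN_1708611 read -0.34 in replicate 4 against -0.18 to -0.17, and FAM83D ILMN_1781943 read -0.19 in replicate 2 against 0.11 to 0.15. For #1 siCITED1, HAPLN1 ILMN_1678812 read -0.58 in replicate 1 against -0.40 to -0.36, and SPP1 ILMN_1651354 read 0.83 in replicate 2 against 0.51 to 0.55.

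At 19 of 45 probes the effects of the 2 siRNAs differed in the #1 minus #3 contrast of limma, beside 7.46% of all probes. Many of the 45 are named because they were the largest called in this or another comparison, so nothing is read from that count. Higher with #1 siCITED1 were CEMIP (1.66), SPP1 (0.74 at ILMN_1651354 and 0.91 at ILMN_2374449), RDX (0.65), PGM1 (0.51) and ADAM10 ILMN_1718946 (0.49). Lower with #1 siCITED1 were HAS3 ILMN_1794501 (-0.53), HAPLN1 (-0.90 at ILMN_2210519 and -0.82 at ILMN_1678812), HABP4 ILMN_2107991 (-0.52), VCAN (-0.48), UGP2 ILMN_1671969 (-0.43) and EZR (-0.45 at both probes). The ADAM10 call was lost under 3 of 19 alternatives, 2 of them with a single array left out. The RDX and UGP2 calls were each lost under 1 of 19. The spindle genes AURKA ILMN_2357438 (-0.75), TPX2 (-0.57), FAM83D (-0.46), KIF11 ILMN_2143155 (-0.44) and BRCA1 ILMN_1738027 (-0.30) were lower as well. CEMIP and HAS3 were selected on these values, so their differences are a description.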

How the results depend on the processing

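No named probe changed sign while called under any alternative. The probes named only for their correlation with a member were not part of this check. At the 16 hyaluronan probes, 144 of the values called as reported stayed past the threshold over the alternatives and 27 did not, and of those not called 1035 stayed so and 10 passed. The count of hyaluronan probes called for both siRNAs together was 1 as reported, 0 with robust eBayes, 0 with gene means and 2 as the mean of the 2 contrasts of the 3-group model, and 0 to 1 with single arrays left out. With #1 siCITED1 it was 4, and 2 genes with gene means, with 2 to 4 when single arrays were left out. With #3 siCITED1 it was 2, and 1 gene with gene means, with 1 to 3 when single arrays were left out. Between the siRNAs it was 2 in every fit. With gene means the 2 probes of HMMR count as 1 gene, and HAS3, as the mean of its 2 probes, was not called against siNEG.

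Over all probes, 525 were called for both siRNAs together, against 1692 as the mean of the 2 contrasts and 240 to 592 with single arrays left out. The counts without single arrays were 2335 to 2845 (2858 as reported) for #1 siCITED1, 860 to 1392 (1201) for #3 siCITED1 and 2901 to 3964 (3528) for #1 minus #3. The replicate numbers share no stated origin, and deviations of arrays with the same number correlated at -0.05 to 0.10 over 12 pairs. With the replicate number as a block, 291 probes and 0 hyaluronan probes were called for both siRNAs together, and the HAS3 call with #1 siCITED1 was lost. The causes of these shifts were not tested. No filter on low values could be run, because the values are centred.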
